A study of Mus musculus with 48 samples.

Results

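The comparison described here is the labelled hepatocyte knockout of Pparg against its control in female mice on the HFCF diet (much fat with added cholesterol and fructose). It covers all genes measured in 8 liver libraries, 4 from labelled knockouts and 4 from controls, out of 48 libraries in the study. All mice, controls included, carried floxed Pparg alleles and were adults when feeding began. Both groups ate a high fat (HF) diet for 18 weeks and then the HFCF diet for 16 weeks, and the labels give their disease state as non-alcoholic steatohepatitis. The labelled knockouts received AAV8-TBG-Cre after 16 weeks of diet, before the change of diet, and the controls received AAV8-TBG-null. AAV8 is an adeno-associated virus that reaches the liver well, and the TBG promoter is active in hepatocytes, so Cre recombinase is directed to hepatocytes while the other liver cells keep intact alleles. RNA came from whole liver, and fewer cells of a type cannot be told apart from less RNA per cell. The study has 10 groups in all. Those set beside the HFCF females were females on the HF diet or a low fat (LF) diet for 34 weeks (4 livers per group) and males on the HF or HFCF diet (6 livers per group), each with the same virus pair. Nothing in the labels describes pooling of animals, so each library is treated as a liver of its own.

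PPARγ, the product of Pparg, is a nuclear receptor that binds DNA as a heterodimer with RXR and is activated by fatty acid derived ligands. It is best known as the driver of fat cell formation. Hepatocytes normally contain little of it, and in fatty liver its level rises and it switches on genes for fatty acid uptake, triglyceride assembly and the lipid droplet coat that are otherwise typical of adipocytes.

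Depth was 15338239 to 19079037 reads on genes per library. Labelled-knockout replicate 1 stood apart from the other 7 libraries. Reads fell on 19217 genes in it and on 20872 to 21494 genes in the others. Its Spearman correlation with the other libraries, over genes, was 0.955 to 0.974, while the other 7 correlated at 0.985 to 0.992 among themselves. Summed over 9 hepatocyte markers such as Alb, its level was 126390 CPM (read counts scaled by library size and its TMM factor), against 60037 to 75450 CPM in the controls and 70080 to 87027 CPM in the other 3 labelled knockouts. Results are therefore given with and without this library. Albumin and the other hepatocyte markers marked all 8 libraries as liver. The adipocyte genes Adipoq and Plin1 had 0 recorded reads in all 8, as did 3 of 6 exocrine pancreas genes. A gene missing from the deposited counts was taken as 0. The smallest deposited sum of reads for a gene was 2, so a lone read could have gone unrecorded.

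The targeted gene itself, Pparg (ENSMUSG00000000440, chromosome 6, 115360951 to 115490399, plus strand), comes first, with coordinates here and below as in the deposited tables (GRCm38). Pparg measured 25.0, 25.3, 23.2 and 26.9 CPM in the controls and 42.8, 63.0, 47.9 and 43.4 CPM in the labelled knockouts. Every library labelled knockout thus held more Pparg RNA than every control. The mean was 1.97-fold higher, a log2 difference of 0.97 (SE 0.13) with an adjusted p of 0.0422 from the edgeR quasi-likelihood test. On log2 CPM, the 2-sided exact permutation test gave a difference of 0.95 and p = 0.0286, the smallest p that 4 against 4 libraries allow. The values count reads over the whole gene, and reads from exons inside and outside the floxed part are not separated, so they check the deletion only in part. Among the other receptors of the family, Ppara measured 216 against 141 CPM (log2 change -0.62, unadjusted p 0.0481 by edgeR). Of the 19 PPAR and RXR receptors and coregulators tested, Pparg was the only member called (0.00668% of all genes were called higher). The word labelled is kept throughout for the knockout libraries.

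Of 14980 genes tested, 8 were called at an adjusted p under 0.05 (edgeR quasi-likelihood, Benjamini-Hochberg), 0.0534% of all genes. Pparg was the 1 gene that rose (0.00668% of genes called higher), and 7 genes fell (0.0467% called lower). The 7 were Gal3st1, Dio1, Clstn3, Vnn1, Cidec, Casc4 and Mogat1. At an unadjusted p under 0.05 there were 1340 genes (8.95%), 698 higher (4.66%) and 642 lower (4.29%), and the median log2 change over all genes was 0.000659. Without labelled-knockout replicate 1 the calls numbered 19 of 15296 genes (0.124%), 3 higher (0.0196%) and 16 lower (0.105%), and held all 8. Leaving out labelled-knockout replicate 2 left 0 calls (2018 genes at an unadjusted p under 0.05). The other 6 omissions left 1 call each (control replicate 1 or 3, labelled-knockout replicate 3 or 4) or 2 calls each (control replicate 2 or 5), always with Gal3st1 among them. Pparg, Dio1, Vnn1, Cidec and Casc4 were each called in 1 of the 8 omissions, that of labelled-knockout replicate 1, and Clstn3 and Mogat1 in 2. With all female groups in 1 fit edgeR called 5 genes, none (0) of the 8 among them. The DESeq2 Wald test called 81 genes. The authors' deposited table for these groups gives 82 genes an adjusted p under 0.05, 17 higher and 65 lower, and includes all 8.

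The lipid droplet gene with the largest change among the calls was Cidec (ENSMUSG00000030278, chromosome 6, 113424634 to 113435760, minus strand). CIDEC, also called FSP27, sits at contacts between lipid droplets and lets small droplets fuse into large ones. Control livers held 71.4, 72.5, 45.6 and 84.4 CPM and labelled knockouts 4.53, 17.2, 13.1 and 16.9 CPM. The groups did not overlap, and the lowest value was that of labelled-knockout replicate 1. The means were 68.5 ± 16.3 CPM in controls and 12.9 ± 5.89 CPM in labelled knockouts (SD, n = 4 each). Cidec fell 5.24-fold, with a log2 change of -2.39 (SE 0.33) and an edgeR adjusted p of 0.0422. Without replicate 1 the log2 change was -2.13 and the adjusted p 0.00223.

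Clstn3 (ENSMUSG00000008153, chromosome 6, 124430759 to 124464794, minus strand) encodes calsyntenin 3, and an adipocyte transcript of the same locus encodes a protein that restricts droplet fusion by CIDE proteins. The counts do not separate the 2 kinds of transcript. Clstn3 stood at 45.1, 34.8, 49.4 and 27.5 CPM in controls and 11.7, 16.8, 15.9 and 13.1 CPM in labelled knockouts. It fell 2.72-fold (log2 change -1.44, SE 0.19, edgeR adjusted p 0.0422), again without overlap.

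Mogat1 (ENSMUSG00000012187, chromosome 1, 78510991 to 78538173, plus strand) encodes a monoacylglycerol acyltransferase, which makes diacylglycerol on the way to triglyceride. Its level was 7.60, 3.88, 7.36 and 5.70 CPM in controls and 1.99, 2.01, 1.75 and 2.11 CPM in labelled knockouts. The controls spread widely and the labelled knockouts lay close together. The fall was 3.12-fold, with a log2 change of -1.64 (SE 0.24) and an edgeR adjusted p of 0.0494, the nearest to the threshold of the 8. Its exons overlap BC035947 on the other strand, and the libraries do not keep the strand, so its reads are uncertain in part.

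Gal3st1 (ENSMUSG00000049721, chromosome 11, 3983636 to 3999326, plus strand) had the smallest p of all genes. It encodes cerebroside sulfotransferase, the enzyme that adds sulfate to galactosylceramide to give sulfatide. Controls measured 12.1, 15.1, 15.6 and 10.8 CPM and labelled knockouts 3.66, 3.64, 4.45 and 4.06 CPM. All 4 labelled knockouts, replicate 1 included, lay within a narrow band below the controls. Gal3st1 fell 3.38-fold, with a log2 change of -1.76 (SE 0.16) and an edgeR adjusted p of 0.00544. Omitting each library in turn, 7 of the 8 fits called it, and its log2 change ran from -1.85 to -1.68. Of the 15 sulfatide and galactosylceramide genes tested, Gal3st1 was the only call (0.0467% of all genes were called lower). Arsa, the lysosomal sulfatase that takes the sulfate off again, measured 80.6 against 52.1 CPM (log2 change -0.63, unadjusted p 0.0181). Ugt8a, which makes the galactosylceramide and was named after its value was seen, measured 1.88 against 2.21 CPM.

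Vnn1 (ENSMUSG00000037440, chromosome 10, 23894688 to 23905343, plus strand) encodes vanin 1, a pantetheinase that releases cysteamine and pantothenate and is widely used as a readout of PPARα. It measured 146, 155, 169 and 168 CPM in controls and 94.2, 79.4, 80.7 and 58.8 CPM in labelled knockouts, with the highest labelled knockout, replicate 1, still below every control. The fall was 2.04-fold (log2 change -1.03, SE 0.14, edgeR adjusted p 0.0422). Dio1 (ENSMUSG00000034785, chromosome 4, 107291465 to 107307169, minus strand) encodes the type 1 iodothyronine deiodinase, which converts thyroxine to the active hormone in liver. Its values were 129.7, 127, 148 and 146 CPM against 72.7, 82.7, 84.8 and 70.8 CPM. Dio1 fell 1.77-fold (log2 change -0.82, SE 0.11, edgeR adjusted p 0.0422). Casc4 (ENSMUSG00000060227, chromosome 2, 121866970 to 121936220, plus strand) encodes a Golgi membrane protein. It measured 11.7, 12.8, 10.7 and 12.2 CPM against 4.13, 4.75, 6.19 and 6.29 CPM and fell 2.21-fold (log2 change -1.15, SE 0.16, edgeR adjusted p 0.0422). On the authors' deposited per-length scale, Dio1 (65.8 FPKM) and Vnn1 (62.3 FPKM) were the most abundant of the 8 in controls, Cidec followed at 34.9 FPKM, and Casc4 was the lowest at 1.92 FPKM.

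**Figure D1:**
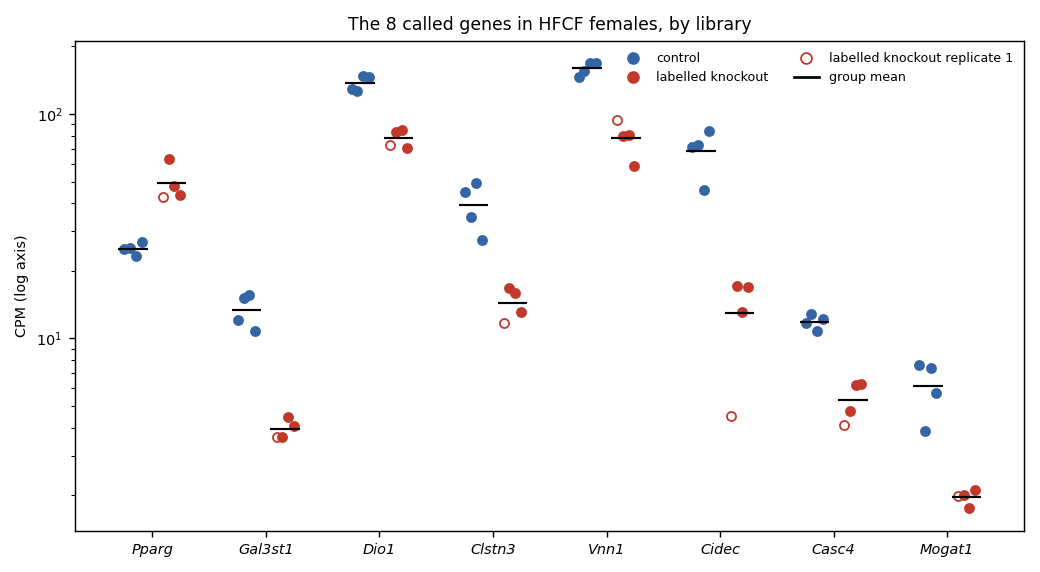
CPM of the 8 called genes in each HFCF female library, on a log axis; blue points are controls, red points labelled knockouts, the open red point labelled-knockout replicate 1, and black lines group means (n = 4). Pparg is higher and the other 7 genes are lower in every labelled knockout than in every control, and replicate 1 is the lowest library for Cidec at 4.53 CPM.

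The next 12 genes lower in the labelled knockouts, ranked by p among those whose groups did not overlap, missed the threshold over all genes. Non-overlap alone held for 440 genes lower (2.94%) and 375 higher (2.50%). First among the 12 was Plin4 (ENSMUSG00000002831, chromosome 17, 56100591 to 56109803, minus strand), the gene of perilipin 4, a lipid droplet coat protein of fat cells. Plin4 measured 120.1, 149, 78.9 and 134 CPM in controls and 4.05, 18.2, 21.2 and 25.3 CPM in labelled knockouts. Replicate 1 was again the lowest, and the other 3 labelled knockouts also lay far below the lowest control. The log2 change was -2.80 (SE 0.41) with an edgeR adjusted p of 0.0529. Without replicate 1 it was called, at -2.49 and 0.00223. Its exons overlap those of Hdgfl2 on the other strand.

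Without replicate 1, 9 of the 12 were called, all but Rab43, Sh3bgrl2 and Fitm2 (0.105% of all genes tested were called lower). The 12 were picked by p in these same libraries, so this count is not independent support. None of the 9 was called when any other single library was left out. Fitm2, an endoplasmic reticulum protein that helps lipid droplets bud, measured 89.5 ± 13.6 CPM in controls and 49.7 ± 8.92 CPM in labelled knockouts (log2 change -0.85, edgeR adjusted p 0.108). Lepr, the leptin receptor gene, measured 21.9 to 30.9 CPM against 8.61 to 16.8 CPM (-1.12, 0.106). Sdcbp2, which encodes the adaptor syntenin 2, had 23, 69, 30 and 45 reads in the controls and 6, 3, 1 and 0 reads in the labelled knockouts, so its log2 change of -3.85 rests on few reads. Gprc5b, the gene of an orphan G protein-coupled receptor, measured 9.49 to 17.3 against 1.35 to 5.02 CPM, and Olig1, a transcription factor gene best known from oligodendrocytes, 8.54 to 10.7 against 2.59 to 5.72 CPM. The gene of the endoplasmic reticulum peptidase Ermp1 measured 71.2 to 98.9 against 33.9 to 54.6 CPM. Abcc3 is described with the bile acid genes. Bhlhb9, Kbtbd11, Rab43 (a small GTPase) and Sh3bgrl2 had log2 changes of -1.36, -1.67, -0.88 and -0.66. Exons of Bhlhb9, Rab43, Kbtbd11, Gprc5b, Olig1 and Fitm2 overlap those of other genes, so part of their reads is uncertain.

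The 12 ranked genes that were higher came from several pathways. Msmo1 (39.4 to 50.2 CPM in controls, 63.0 to 81.3 CPM in labelled knockouts) and Pmvk encode enzymes of cholesterol synthesis. Defb1, the gene of an antimicrobial beta-defensin, measured 4.25 to 7.01 CPM against 10.1 to 14.7 CPM, a log2 change of 1.03. Lect2, which encodes a protein secreted by hepatocytes, measured 99.6 to 122 against 146 to 209 CPM, with the highest value in replicate 1. F11, the gene of coagulation factor XI, had the smallest change of the 12, 0.42. Aqp4, the gene of a water channel, measured 6.21 ± 1.97 CPM in controls and 13.2 ± 2.83 CPM in labelled knockouts, and Ptk6, which encodes a cytoplasmic tyrosine kinase, had the largest log2 change of the 12, 1.16. Gas2 encodes a protein bound to actin filaments, Cks2 a small subunit of cyclin-dependent kinases and Sdr9c7 a short-chain dehydrogenase, and their log2 changes were 0.59, 0.68 and 0.91. Tmem29 and Chic1 completed the 12, with log2 changes of 0.69 and 0.93. Their edgeR adjusted p ran from 0.106 (Defb1) to 0.332 (F11). Without replicate 1, Gas2 (0.67, adjusted p 0.0223) and Msmo1 (0.69, 0.0431) were called higher beside Pparg, 3 genes or 0.0196% of those tested.

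Few of the lipid droplet genes passed the test. Of 15 coat and fusion genes tested, Cidec and Clstn3 were called lower (0.0467% of all genes were), and 5 members (these with Plin4, Fitm2 and Fitm1) had an unadjusted p under 0.05, all lower (4.29% of all genes). The list's median log2 change was -0.03, beside 0.000659 for all genes. Without replicate 1 the median was -0.16, and 3 members were called lower (0.105% of genes). The other perilipins, named after their values were seen, had small changes. Plin2, the main droplet coat protein of hepatocytes, measured 903 ± 99.6 CPM in controls and 803 ± 38.2 CPM in labelled knockouts (log2 change -0.17). Plin3 and Plin5 had log2 changes of 0.08 and -0.03, and Cideb, the CIDE gene usual in hepatocytes, 0.31. Cidea held under 1 CPM on average in both groups and was not tested. Among the 8 adipocyte-type genes tested, of 15 found, Pparg was called higher (0.00668% of all genes were) and 4 members were lower at an unadjusted p under 0.05 (4.29% of all genes). Pck1, the gene of the gluconeogenic enzyme phosphoenolpyruvate carboxykinase, was 1572 against 883 CPM, a log2 change of -0.83 (edgeR adjusted p 0.216). The median of this list was -0.37, and -0.63 without replicate 1. The defining fat cell genes Adipoq and Plin1 had 0 recorded reads in all 8 libraries, and which cells the RNA of the adipocyte-type genes came from was not tested.

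Triglyceride synthesis, lipolysis and fatty acid uptake genes showed few differences beyond Mogat1. Of 13 triglyceride synthesis genes, Mogat1 was the only call (0.0467% of all genes were called lower). At an unadjusted p under 0.05, 2 members were lower (4.29% of all genes) and none higher, and 4 were lower without replicate 1 (4.47% of genes). Gpat3, an acyltransferase of the first step, measured 25.7 against 21.4 CPM (unadjusted p 0.0254). Of 9 lipolysis genes none was called, and the lipases Mgll and Pnpla2 measured 245 against 196 CPM and 103 against 81.4 CPM, with unadjusted p of 0.0237 and 0.0321. They were the 2 members at an unadjusted p under 0.05, both lower (4.29% of all genes were). Of 17 genes of fatty acid uptake and lipoprotein lipase none was called. Their smallest p belonged to Angptl8 (log2 change 1.25), Lpl (-0.71) and Angptl4 (-0.31), the genes of lipoprotein lipase and of its circulating inhibitors. Angptl8 spread widely, at 26.3 ± 3.54 FPKM in controls and 61.1 ± 44.0 FPKM in labelled knockouts. Its log2 change ran from 0.58 to 1.43 as each library was left out in turn. Cd36, a fatty acid transporter often described as a PPARγ target and named after its value was seen, measured 347 ± 20.1 CPM in controls and 297 ± 16.7 CPM in labelled knockouts, a log2 change of -0.22. Of 18 lipogenesis genes none was called. Scd1, the stearoyl-CoA desaturase gene, was lower (-0.47, unadjusted p 0.0457) while Acss2 (0.50) and Pklr (0.33) were higher at unadjusted p of 0.0388 and 0.0477. Without replicate 1 no member (0 of 18) was higher at an unadjusted p under 0.05 (3.84% of genes were), with p of 0.0557 for Acss2 and 0.0545 for Pklr.

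Among 26 fatty acid oxidation and other PPARα target genes tested, Vnn1 was the only call (0.0467% of all genes were called lower). Of the 26, 17 had a negative and 9 a positive log2 change, 5 had an unadjusted p under 0.05, all lower (4.29% of all genes), and the median was -0.20. By library, the list's median against the control mean was -0.15, -0.04, 0.01 and -0.40 in labelled knockouts and -0.14 to 0.10 in controls, so that 2 of the 4 labelled knockouts lay within the control range. Acaa1b, a peroxisomal thiolase gene, measured 2691 ± 518 CPM in controls and 1721 ± 472 CPM in labelled knockouts, and Acot2, a mitochondrial acyl-CoA thioesterase gene, 55.3 against 35.5 CPM. The canalicular and basolateral transporters of bile acids and phospholipid also included lower members. Abcc3, an exporter of organic anions at the sinusoidal face, measured 456, 429.9, 462 and 362 CPM in controls and 274, 248, 190.2 and 198 CPM in labelled knockouts. Its groups did not overlap, its log2 change was -0.91 (SE 0.15) and its edgeR adjusted p 0.0791, or 0.0161 without replicate 1. Abcb4, the phospholipid flippase, and Abcc4 had log2 changes of -0.39 and -0.78. Of 19 bile acid genes, 3 were lower (4.29% of all genes) and 1 higher (4.66%) at an unadjusted p under 0.05 and none was called. Without replicate 1, 3 were lower (4.47% of genes) and 0 higher (3.84%). Of 12 LXR target and cholesterol efflux genes none was called, and Abca1 (-0.41) and Abcg1 (-0.50), which export cholesterol, were lower at unadjusted p of 0.0229 and 0.0330, while Soat2, which esterifies it, was higher (0.29, 0.0246).

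Cholesterol synthesis genes were the list with the most members on the higher side. Sterols hold back these genes by keeping the transcription factor SREBP2 in the endoplasmic reticulum. Of 25 genes tested, 23 had a positive log2 change and 13 an unadjusted p under 0.05, all 13 higher, beside 4.66% of all genes. None was called with all 8 libraries, and Msmo1 was called without replicate 1. Msmo1, the sterol methyl oxidase, measured 49.0, 39.4, 50.2 and 45.6 CPM in controls and 63.0, 75.8, 81.3 and 65.9 CPM in labelled knockouts. Pmvk, phosphomevalonate kinase, measured 33.6, 24.8, 29.0 and 32.8 CPM against 61.1, 43.5, 43.8 and 42.2 CPM. In both genes the groups did not overlap, and replicate 1 was the highest labelled knockout for Pmvk and the lowest for Msmo1. Nsdhl, a sterol dehydrogenase, measured 24.2 to 32.9 CPM against 36.6 to 43.6 CPM (log2 change 0.48). The largest log2 change of the list was 0.66 (Pmvk), and the median was 0.41, or 0.30 without replicate 1. By library, the list's median against the control mean was 0.15, 0.46, 0.35 and 0.25 in labelled knockouts and 0.15, -0.22, 0.11 and 0.04 in controls, so that all 4 labelled knockouts lay above every control, replicate 1 only just (0.151 against 0.146 in the highest control).

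**Figure D2:**
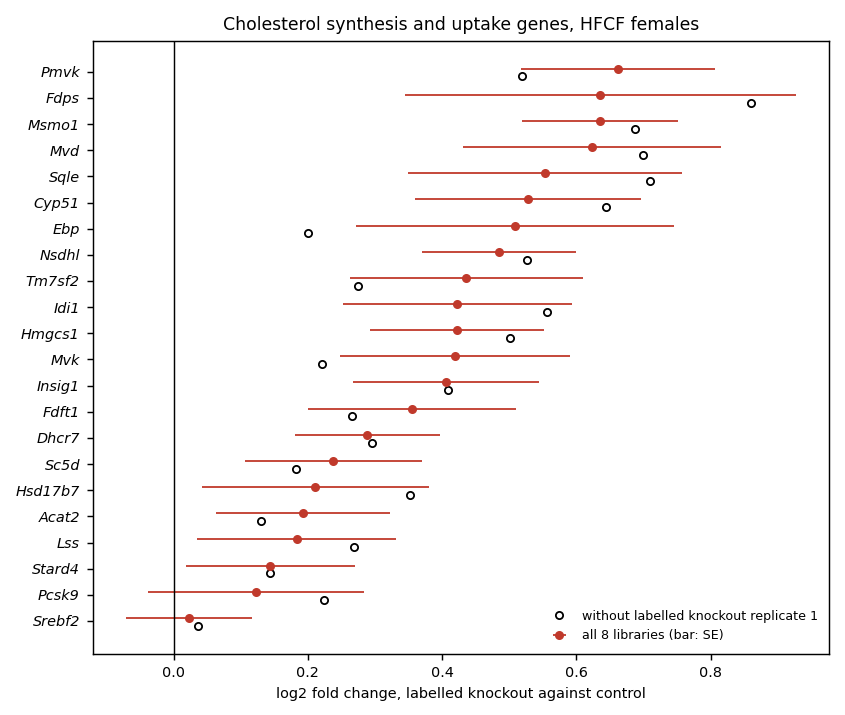
Log2 change of 22 of the 25 cholesterol synthesis and uptake genes in HFCF females, labelled knockout against control; filled points with bars are the fit of all 8 libraries with its SE, open points the fit without labelled-knockout replicate 1. All 22 genes drawn lie above 0 in both fits, while 23 of the whole list of 25 do, since 3 members are not drawn.

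Promoter sequences are shown for 2 cholesterol genes, because 13 members of this list lay on the same side at an unadjusted p under 0.05, and for Cidec and Gal3st1, the calls with the largest change and the smallest p. They are the 250 bases before the annotated start (the first listed start of each gene), from RefSeq on GRCm38.p6, written 5′ to 3′ on the strand of the gene. Hmgcs1, the HMG-CoA synthase gene, was chosen after its value was seen (163 against 219 CPM). The windows are chr13:119690101-119690350, plus strand for Hmgcs1, chr8:64733579-64733828, minus strand for Msmo1, chr6:113435761-113436010, minus strand for Cidec and chr11:3983386-3983635, plus strand for Gal3st1. Capitals mark matches, on either strand, to CCAAT, to the sterol element type TCACNNCAC, to the nuclear receptor half-site AGGTCA, or to the direct repeat AGGNCANAGGNCA of the PPAR and RXR type, which contains the half-site where its free bases are T.
Hmgcs1: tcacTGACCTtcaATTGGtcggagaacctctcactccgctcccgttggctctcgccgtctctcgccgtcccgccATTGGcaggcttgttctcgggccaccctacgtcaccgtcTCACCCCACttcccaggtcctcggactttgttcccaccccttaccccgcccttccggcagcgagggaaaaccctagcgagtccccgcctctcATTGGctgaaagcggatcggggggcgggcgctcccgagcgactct
Msmo1: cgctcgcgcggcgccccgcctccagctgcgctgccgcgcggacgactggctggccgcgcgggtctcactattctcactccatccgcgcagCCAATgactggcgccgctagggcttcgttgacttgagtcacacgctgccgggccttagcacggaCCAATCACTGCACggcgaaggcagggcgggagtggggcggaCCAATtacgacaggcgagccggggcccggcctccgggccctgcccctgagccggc
Cidec: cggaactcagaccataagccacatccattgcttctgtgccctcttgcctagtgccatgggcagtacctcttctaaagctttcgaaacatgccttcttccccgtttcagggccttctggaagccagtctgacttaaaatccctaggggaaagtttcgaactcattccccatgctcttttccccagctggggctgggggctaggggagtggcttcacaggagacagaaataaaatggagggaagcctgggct
Gal3st1: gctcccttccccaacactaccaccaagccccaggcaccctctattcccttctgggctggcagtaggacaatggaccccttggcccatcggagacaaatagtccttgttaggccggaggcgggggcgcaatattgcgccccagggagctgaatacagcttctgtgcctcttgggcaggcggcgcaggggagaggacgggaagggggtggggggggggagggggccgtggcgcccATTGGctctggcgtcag
Hmgcs1 held 3 CCAAT matches, 1 match to TCACNNCAC and 1 half-site, and Msmo1 held 3 CCAAT matches of which 1 shares a base with its match to TCACNNCAC. The 4 motifs were chosen after the expression values were seen. The counts over genes take a gene as holding a motif where any of its listed starts does, not only the first. Of 25 cholesterol genes 17 were in the promoter table, and CCAAT was found in 16 of these (94.1%) against 37.5% of 27025 genes, while TCACNNCAC was found in 4 (23.5%: Dhcr7, Hmgcs1, Hsd17b7 and Msmo1) against 3.63%. For AGGTCA the cholesterol count was 3 of 17 (17.6% against 15.8%). The 19 called or ranked lower genes gave 15 matches to the table, of which 0 held AGGNCANAGGNCA (0.400% of genes) and 1 held AGGTCA (6.67% against 15.8%). CCAAT was held by 7 (46.7%). TCACNNCAC was held by 1 (6.67% against 3.63%), which was Cidec, at a start other than the one shown. These are matches of letters in a short window and not binding sites, and enhancers outside the window were not searched.

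Carbohydrate genes lay on both sides of the controls. Gckr, the regulator of glucokinase, measured 307 against 413 CPM (log2 change 0.43) and Ppp1r3c, which targets a phosphatase to glycogen, 19.6 ± 3.73 CPM in controls and 43.2 ± 25.9 CPM in labelled knockouts (1.13, or 0.64 without replicate 1), whereas Pck1 was lower as given above. Of 16 fructose and glucose genes none was called, and 4 were higher (4.66% of all genes) and 2 lower (4.29%) at an unadjusted p under 0.05. Without replicate 1, 3 were higher (3.84% of genes) and 2 lower (4.47%). The median was 0.20, or 0.07 without replicate 1.

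Fibrosis and inflammation genes gave no call. Of 27 collagen and matrix genes 26 had a negative log2 change, with a median of -0.26, and Col4a2, a basement membrane collagen whose exons overlap Col4a1, was the 1 member at an unadjusted p under 0.05 (-0.46). The median was -0.08 without replicate 1, which was the lowest library for this list at -0.83 on log2 against the control mean. The other 3 labelled knockouts stood at -0.08, -0.22 and 0.04, within the controls' -0.46 to 0.22. Of 21 inflammation genes none was called. The inflammasome gene Nlrp3 measured 5.47 against 2.83 CPM (log2 change -0.93, edgeR adjusted p 0.410) and Il1b 7.08 against 4.72 CPM, while Saa1, an acute phase gene with a near-identical paralog, measured 205 against 284 CPM. Chac1, a glutathione-degrading enzyme induced by the integrated stress response, measured 5.46 ± 1.64 CPM in controls and 2.44 ± 0.404 CPM in labelled knockouts (-1.16, edgeR adjusted p 0.227), while Atf4, the regulator of that response, had a log2 change of 0.32, and of 15 stress response genes none was called. Gsta2 and Gsta1, glutathione transferase paralogs whose reads may be shared, had log2 changes of 0.89 and 0.89, and none of 14 NRF2 genes was called. The cell cycle and clock lists (16 and 17 tested) had no call. At an unadjusted p under 0.05 each had 1 member, Ccnd1 (-0.46) and Per1 (-0.59), beside 4.29% of all genes lower.

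Sex-biased liver genes varied widely from mouse to mouse. Of 13 female-biased genes tested none was called, and the largest log2 changes were those of Cyp3a41a (3.16) and Sult2a1 (3.13), a cytochrome P450 with close paralogs and a sulfotransferase of steroids. Sult2a1 measured 11.4, 1.70, 6.65 and 3.02 CPM in controls and 169.7, 17.7, 12.1 and 2.89 CPM in labelled knockouts. Replicate 1 held most of that signal, and without it the log2 change was 0.93. The median of the list was 0.88 and went to 0.04 without replicate 1. Elovl3, a male-biased elongase gene overlapping Pitx3, measured 3.91 against 0.988 CPM (-2.02), and none of 9 male-biased genes was called.

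Markers of other cell types were measured beside these genes, and their part in the results was not tested. All 9 hepatocyte markers had positive log2 changes, with a median of 0.45 that was 0.19 without replicate 1. The red blood cell genes tested included the globin gene Hbb-bt (7.17 against 14.8 CPM, one of several near-identical globins) and the heme synthesis gene Alas2 (19.0 against 26.3 CPM). All 5 were higher at an unadjusted p under 0.05 (4.66% of all genes were), 4 of them without replicate 1 (3.84% of genes). Their summed level was 96.3 to 183 CPM in controls and 148 to 287 CPM in labelled knockouts, and the red cell membrane gene Slc4a1 was under 1 CPM on average. Of 10 Kupffer cell markers, 6 had negative and 4 positive log2 changes, with a median of -0.11. Csf1r (-0.37) and Adgre1 (-0.50), receptors of resident macrophages, were lower at an unadjusted p under 0.05 (4.29% of all genes were). No member (0) was higher at that p. Without replicate 1, 4 were lower (4.47% of genes) and 0 higher (3.84%), with a median of -0.15. The list summed to 1072 to 1222 CPM in controls and 886 to 1153 CPM in labelled knockouts. All 10 lipid-associated macrophage markers had negative log2 changes, with a median of -0.16 and no unadjusted p under 0.05, and their sums overlapped (880.3 to 1400.4 and 862 to 1216 CPM). No member of the sinusoidal endothelial, biliary or lymphocyte lists (9 tested in each) had an unadjusted p under 0.05, and 1 did in the stellate cell list (Rgs5, -0.32, of 10) and in the neutrophil list (Csf3r, -0.47, of 4). The 4 adipocyte contamination markers tested summed, with the list's untested members, to 749 to 1568 CPM in controls and 584 to 1769 CPM in labelled knockouts. Most of it came from Car3, which liver also expresses. The 1769 CPM was that of replicate 1, and without it the labelled knockouts summed to 584 to 760 CPM. All 4 had negative log2 changes, with a median of -0.19, or -0.49 without replicate 1. At an unadjusted p under 0.05, 1 was lower (4.29% of all genes), and 2 without replicate 1 (4.47% of genes).

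**Figure D3:**
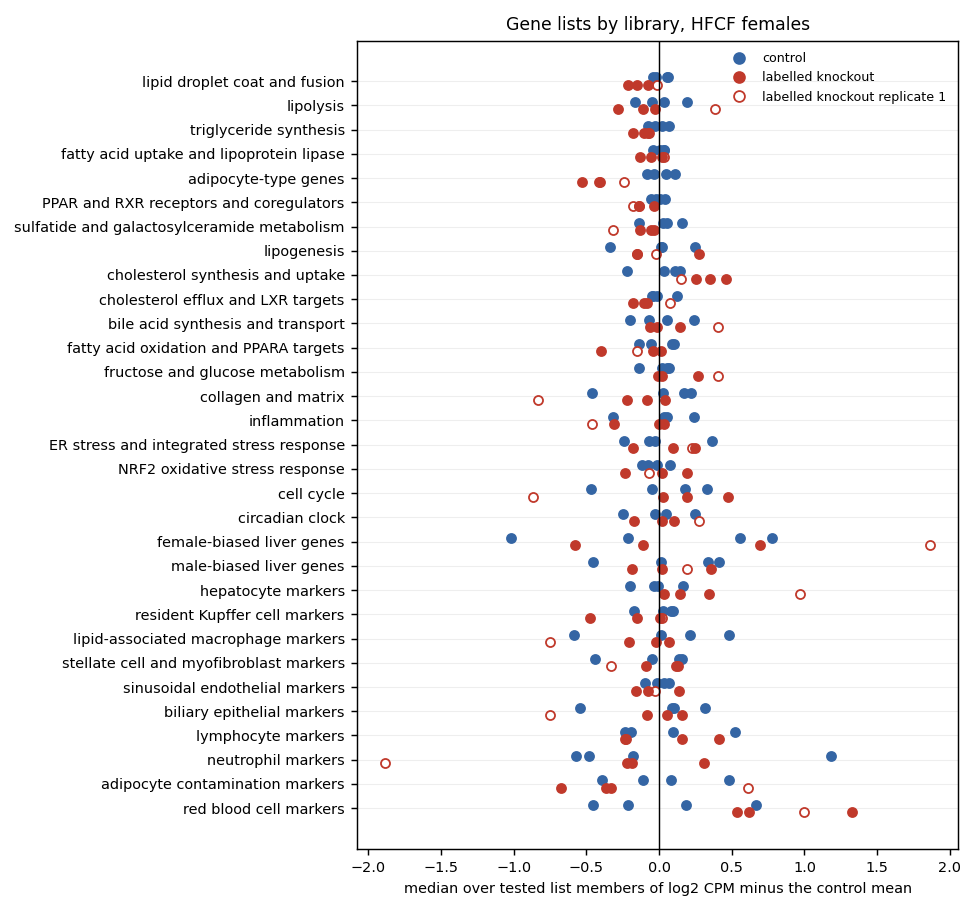
Median over the tested members of each gene list of log2 CPM minus the control mean, for each HFCF female library; blue points are controls, red points labelled knockouts, and the open red point labelled-knockout replicate 1. Red points lie to the left of all controls for the adipocyte-type genes, and replicate 1 is the far point for hepatocyte markers, collagen and female-biased genes.

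The same 32 genes, the 8 calls and the 24 ranked, were then read in the other diets and in males, in mice that share no library with the HFCF females. In HFCF males 18 of the 19 lower genes were called lower (1.27% of all genes were), and 6 of the 13 higher genes were called higher (0.933%). In HF males the counts were 17 of 19 (9.88%) and 4 of 13 (8.57%), with Defb1 called the other way. In HF females none was called, as for all genes (0%), yet all 18 lower genes tested had a negative log2 change and their median was -0.94. Their median in LF females was -0.32, with 14 of 18 negative and none called (0% of genes). The log2 difference of Cidec was -0.18 in LF females, -2.56 in HF females, -2.39 in HFCF females, -2.57 in HFCF males and -4.68 in HF males. The HF value rested in part on control replicate 1, at 56.4 CPM (scaled over all 48 libraries) against 9.97, 14.1 and 6.25 CPM in the other 3 HF controls, and was -1.45 without that library (edgeR adjusted p 0.513). Control replicate 1 was also the highest HF control for Gal3st1, Clstn3, Mogat1, Casc4, Bhlhb9 and Plin4, and the lowest for Dio1 and Vnn1. For Plin4 the log2 difference was -0.54, -3.08, -2.80, -2.89 and -3.90 in the same order of settings. Rab43 was the exception among the lower genes in HFCF males, with a log2 change of 0.03 there against -0.88 in HFCF females.

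**Figure D4:**
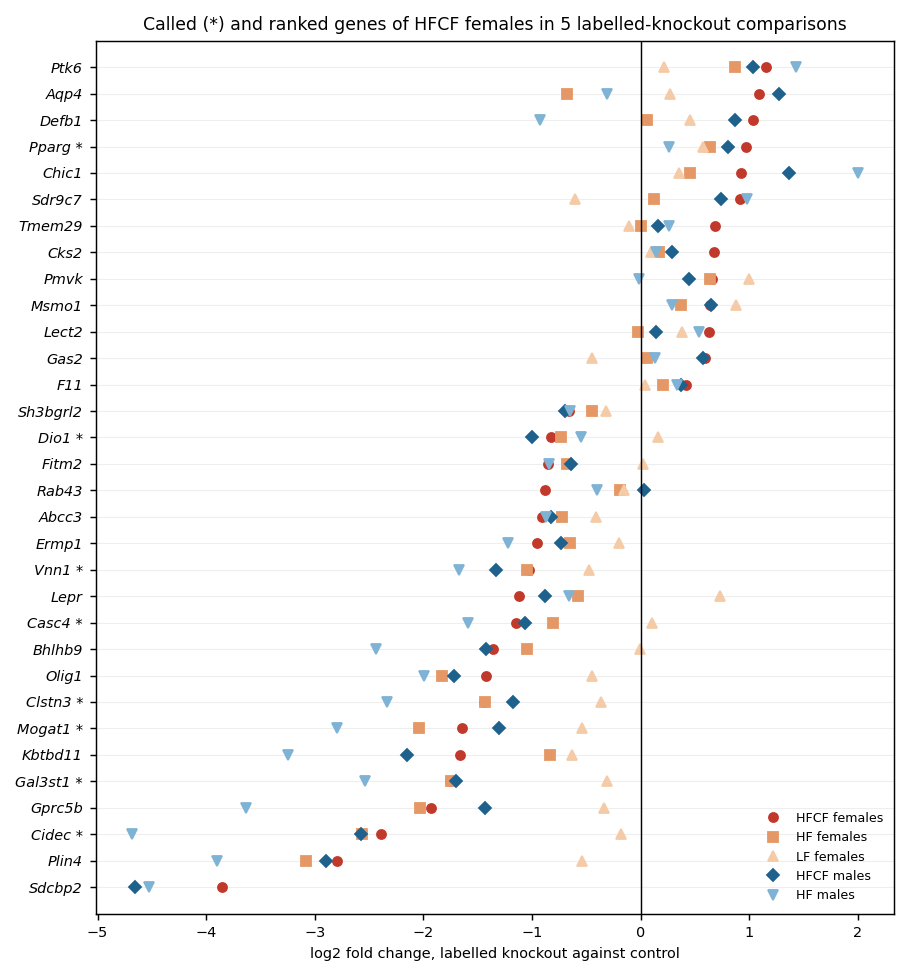
Log2 change of the 8 called genes (asterisks) and 24 ranked genes, labelled knockout against control, in each of 5 sex and diet settings given by colour and marker. The 19 lower genes lie below 0 in HFCF females, all but Rab43 also in HFCF males, and Cidec lies furthest out in HF males at -4.68.

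Levels across the groups are given on CPM scaled over all 48 libraries, so they differ slightly from the values above. Cidec in control females measured 6.96 ± 2.21 CPM on LF, 21.7 ± 23.4 CPM on HF and 64.7 ± 15.2 CPM on HFCF (SD, n = 4 each), and in labelled knockouts 6.12 ± 1.38, 3.70 ± 1.66 and 12.1 ± 5.52 CPM. The control level was thus lowest on LF, and the HF controls spread as widely as their mean. Gal3st1 in control females measured 3.02 ± 1.32, 5.32 ± 3.73 and 12.7 ± 2.25 CPM on LF, HF and HFCF, and 12.4 ± 1.71 CPM in HFCF control males (n = 6). Its labelled knockouts on HFCF stood at 3.68 ± 0.358 CPM in females and 3.81 ± 1.08 CPM in males. Differences between diets at the same genotype were not tested here.

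**Figure D5:**
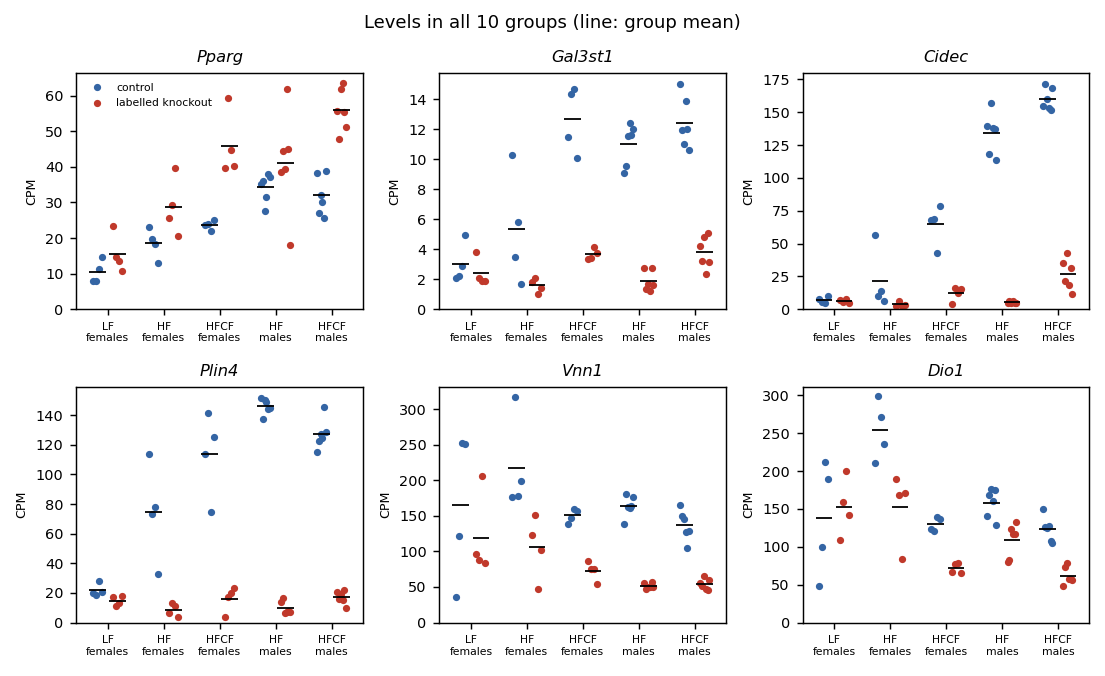
CPM, scaled over all 48 libraries, of 6 genes in the 10 groups; blue points are controls, red points labelled knockouts, and lines group means. Cidec, Plin4 and Gal3st1 are low in LF females of both genotypes and show no overlap between controls and labelled knockouts in HFCF females or in either male group, and Pparg is higher in each labelled-knockout group mean.

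Whether the effect itself differed was tested with interaction terms. Between HFCF and HF females 0 of 15445 genes were called (667, or 4.32%, at an unadjusted p under 0.05), between HFCF and LF females 0 of 15496 (654, 4.22%), and between males and females on HFCF 0 of 15673 (1515, 9.67%), all by edgeR. With the DESeq2 Wald test these counts were 0, 4 and 12, and leaving out labelled-knockout replicate 2 or 4 gave 1 call in the last. For Cidec the difference of log2 changes, HFCF minus LF, was -2.21 (edgeR unadjusted p 1.01e-04, adjusted p 0.530), and for Plin4 it was -2.25 (adjusted p 0.729). For Gal3st1 the difference HFCF minus HF was -0.01 and males minus females 0.06. The HF controls of Gal3st1 spread from 1.71 to 10.3 CPM (scaled over all 48 libraries), with replicate 1 the highest. The male minus female difference was largest, among the 7 genes called lower, for Mogat1 at 0.34, and for Rab43 it was 0.92 (edgeR unadjusted p 1.11e-04, adjusted p 0.349). An effect called in HFCF females and not in HF or LF females is therefore not shown to differ between those diets.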

How the data were processed

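Whole-liver RNA-seq of 8 HFCF female mice was analysed, with 40 further libraries of the study for context. Per the submitters' processing notes, STAR 2.6.1, HTSeq 0.6.1 and DESeq2 were used with GRCm38 (mm10); the annotation is not given in the sources used here. The libraries did not keep the strand, per the labels. The deposited tables hold, per the file headers, raw read counts per gene, a signal (counts divided by 1 factor per library, by the authors), the authors' FPKM values, and the authors' log2 fold changes and p-values. The 11 deposited tables were joined into 29221 genes by 48 libraries, and 0 of 1341082 repeated values differed. Columns without a sample numbered 0.

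From the deposited counts, genes were kept with filterByExpr, scaled with TMM factors and tested with the quasi-likelihood F test of edgeR 4.0.16 (R 4.3.3) on the 8 libraries alone. P-values were adjusted by Benjamini-Hochberg over all genes tested, and a gene was called at an adjusted p under 0.05. The scripts were tested on simulated data. The common biological coefficient of variation was 0.185. Interactions used the 4 groups concerned. Depth was 15338239 to 19079037 reads per library, with 4 mice per group. Whether spread among mice or counting sets the precision was not tested, and the changes of genes such as Sdcbp2 rest on few reads. The design text in the labels names an animal for each library.

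Genes and lists were chosen with earlier results of these data known, so their counts are descriptions. Named genes are Pparg, all calls, the 12 higher and 12 lower genes with the smallest p among those with a mean of at least 1 CPM, no predicted symbol and no overlap between groups, and the 3 members of each list with the smallest p or at the ends of its range. Of 429 list genes 423 were found. The 32 lists are those of the plot of lists by library and exocrine pancreas markers. Alternatives were DESeq2 1.42.0 size factors and Wald test, limma-voom (limma 3.58.1), robust dispersion, no filter, at least 10 reads in every library, an absolute log2 change of at least 1, all female groups in 1 fit, a replicate block, and the omission of each library. Lists without labelled-knockout replicate 1 were added after the data were seen. Promoters came from a RefSeq table on GRCm38.p6. A few genes are not reported here by name.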

Additional observations from a re-analysis of the deposited data

Results flagged for a closer look

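In 64 groups of 4 libraries, Dixon's rule for a single far value marked 2, and chance alone marks about 1 in 20. Control replicate 1 stood at 50.04 CPM for Gas2, above the other 3 controls at 41.9 to 42.6 CPM and below the lowest labelled knockout at 55.2 CPM. Labelled-knockout replicate 1 stood at 61.1 CPM for Pmvk, above the other 3 labelled knockouts at 42.2 to 43.8 CPM. Without that library the log2 change of Pmvk was 0.52 in place of 0.66.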

How the results depend on the processing

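The 8 calls in HFCF females became 81 with the DESeq2 Wald test, 26 with no filter on low counts, 5 with all female groups in 1 fit (with Plin4, Abcc3, Iqsec1 and Rufy4 among them, and none of the 8) and 0 with the replicate block (931 genes at an unadjusted p under 0.05). Leaving out 1 library gave 0 to 19 calls. Counts of 6 to 11 came from the other settings. The replicate numbers 1, 2 and 3 are shared by both groups, and deviations of same-numbered libraries correlated at -0.10, 0.22 and -0.05. Libraries with different numbers correlated at -0.34 to 0.35. These values cannot decide whether same-numbered mice shared more than a number, because so few pairs share one. The interaction of HFCF against LF had 4 calls with the Wald test and 1 with the replicate block, in place of 0, and that of males against females had 12 with the Wald test and 0 to 1 when 1 library was left out. Of the lower genes in HF females, 4 were called with the Wald test, 1 with no filter and 2 with all female groups in 1 fit. The permutation difference of Pparg ran from 0.83 to 1.02 over all settings, each at p = 0.0286 in the exact test. Every log2 change of the 32 called or ranked genes kept its direction in each setting, and the cause of the moved counts was not tested. The number of mice, 4 per group, limits what could be called. The omission of HF control replicate 1, chosen after the data were seen, moved Cidec in HF females from -2.56 to -1.45.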
